A study of Mus musculus with 4 samples.

Results

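The comparison covered mammary fibroblasts from mice with the *ErbB2* oncogene, called tumor fibroblasts here, with 1 Affymetrix mouse genome array of *Ets2* null cells set against 1 array of cells that still had *Ets2*. All probe sets with exactly 1 gene symbol were used, 34958 of 45101, and they named 18194 genes, which are also all the named genes of the series. The series held 4 arrays, and the other 2, from normal fibroblasts with and without *Ets2*, served to show where the tumor pair differed. With 1 array a genotype no test was run and every difference is a size on these arrays.

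All 4 arrays came from FVB/N mice of 16 weeks, an age just before palpable tumors, and all mice carried *Ets2db*, an allele without the DNA-binding domain, opposite a conditional *Ets2* allele (*loxP*) that Cre excises. Normal fibroblasts with *Ets2* were *Ets2db/loxP* and normal *Ets2* null fibroblasts were *FspCre;Ets2db/loxP*. Tumor fibroblasts with *Ets2* were *ErbB2;Ets2db/loxP* and tumor *Ets2* null fibroblasts were *ErbB2;Fsp-cre;Ets2db/loxP*. Cre is driven by the promoter of Fibroblast Specific Protein 1 and *ErbB2* by the MMTV promoter, which is active in the epithelium. Cells were cultured after digestion of the gland and were taken at the second passage. The groups with *Ets2* thus have 1 functional copy, and Cre was present in both *Ets2* null groups and in neither other group, so effects of the transgene and of *Ets2* loss cannot be told apart. Below, 4 values in a row are log2 values in the order normal with *Ets2*, normal *Ets2* null, tumor with *Ets2*, tumor *Ets2* null.

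*Ets2* encodes a transcription factor of the ETS family, which binds DNA at a core of GGAA, is phosphorylated downstream of Ras and ERK, and often acts beside AP-1 factors. Genes of secreted proteases are its textbook targets. In a gland that is forming tumors, fibroblasts make and remodel the matrix and send growth factors, cytokines and vessel-forming signals to their neighbours.

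The brightest *Ets2* probe set was at 8.14, 8.35, 8.34 and 8.31, and over its 3 probe sets the widest difference within the tumor pair was 0.07. No table used here places these probe sets relative to the excised exons, so they do not check the genotype, and the *Ets2* null arrays are named from their labels. Defining fibroblast genes were among the brightest on every array, and the sum over 29 fibroblast markers, as linear values, was 152081, 129200, 154681 and 149257. *Col1a2* was at 14.55 and 14.61, *Vim* at 13.97 and 14.05 and *Prrx1* at 10.67 and 10.70 within the tumor pair, *Ets2* present first. Of the 29, 1 was lower by 2-fold, *Lum*, at 9.47 and 8.45.

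Without *Ets2*, far more genes were lower than higher in tumor fibroblasts. Members of the secreted and lysosomal proteases, acute-phase proteins and early response genes of the ERK pathway were lower, as were the ligands *Tgfb2* and *Tgfb3*. Members of adhesion plaques and caveolae were lower too, on a list put together after the values were seen. Enzymes of cholesterol and fatty acid synthesis were higher. Markers of macrophages, epithelium and skeletal muscle were lower as well, and their values are given beside the groups they touch.

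A gene passed with at least 1 probe set 2-fold apart (a log2 difference of 1), its direction being that of its most different probe set. By this rule 419 of 18194 genes were lower without *Ets2* in tumor fibroblasts, 2.3% of those measured, and 81 were higher, 0.445%. Of the 419, 345 lay between 2-fold and 4-fold, and of the 81, 74 did, so most genes that passed were not past 4-fold. The robust SD of the tumor difference over all probe sets was 0.27 and the median over genes was 0.04. Log2 6 was taken as the level under which signal and background may not be separate. With the higher array at 6 or more, 359 genes were lower, 4.01% of the 8943 genes with such a value, and 70 were higher, 0.783%. Both arrays were at 6 or more for 222 of the lower and 44 of the higher genes, and fold values are given below only for such genes. Each list count below is to be read beside the shares of all genes, 2.3% lower and 0.445% higher. The lists were chosen with earlier results of these data known, so their shares describe them and are not independent support. A gene with several probe sets also has more ways to pass, and 252 of the 419 lower genes had several, beside 9012 of all 18194.

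**Figure D1:**
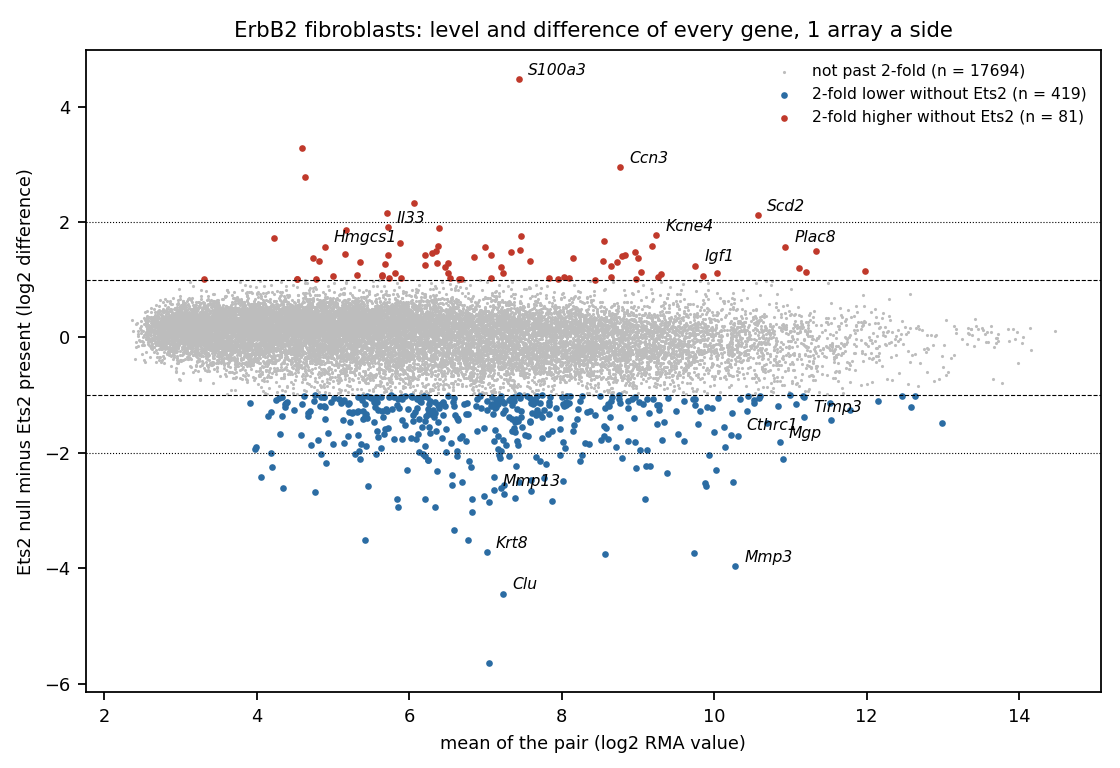
Each point is 1 of 18194 genes on its probe set that differed most, with the mean of the tumor pair in log2 RMA units on the horizontal axis and the log2 difference, *Ets2* null minus *Ets2* present, on the vertical axis. Blue points are the 419 genes lower and red points the 81 genes higher by 2-fold (dashed lines), dotted lines mark 4-fold, and lower genes are seen at every level of expression.

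Where a gene had several probe sets, a further probe set mostly ran the same way. Of 252 lower genes with several, 173 had another past 1.5-fold in the same direction, and of 54 higher genes 40 did. Probe sets of a gene read the same RNA on the same arrays, so this checks the probe set and not the condition. The lower genes just inside the threshold were *Synpo2l* at -1.0016, *Rad51ap1* at -1.0019 and *Pole4* at -1.0038, and just outside were *Slc22a5* at -0.9948, *Rrm2* at -0.9905 and *Skp2* at -0.9905. The higher genes just inside were *Serpinb9* at 1.0012, *Col24a1* at 1.0077 and *Acsl3* at 1.0077, and just outside were *Ctla2a* at 0.9925, *Zfp14* at 0.9925 and *Cpxm2* at 0.99.

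Most lower genes had both extremes of the 4 arrays in the tumor pair. Of the 419, 336 had their highest value of the 4 arrays in tumor fibroblasts with *Ets2*, and 371 had their lowest in tumor *Ets2* null fibroblasts. Their median was 6.90, 7.10, 7.86 and 6.19 in the order above. Of the 81 higher genes, 73 were highest in tumor *Ets2* null fibroblasts and 61 lowest in tumor fibroblasts with *Ets2*, with medians of 6.87, 6.42, 6.18 and 7.59. The rule used both tumor arrays, so these values describe the choice.

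Of 44 extracellular and lysosomal proteases, 12 were lower and 0 higher by 2-fold, the median difference being -0.27. So 27.3% of the list was lower, beside 2.3% of all genes. Of the 44, 39 had the higher array at 6 or more, and of all such genes 4.01% were lower. The 5 metalloproteinases among them were *Mmp3*, *Mmp12*, *Mmp13*, *Mmp8* and *Mmp9*, of 13 measured. *Mmp3*, the stromelysin that cleaves many matrix proteins and activates other proteases, was at 9.87, 8.02, 12.26 and 8.29, a 15.7-fold difference in the tumor pair. *Mmp13*, a collagenase, was at 5.42, 5.56, 8.44 and 5.79, so it stood above 6 in tumor fibroblasts with *Ets2* alone. *Mmp12*, the elastase of macrophages, was at 10.46, 10.37, 11.61 and 7.87, a 13.4-fold difference, and is also on the myeloid list. The gelatinase *Mmp9* differed by -1.04 and the neutrophil collagenase *Mmp8* by -1.85, each below 6 without *Ets2*. The other gelatinase, *Mmp2*, at 11.22, 10.90, 11.97 and 11.69, and the membrane-bound *Mmp14*, at 11.61, 11.02, 11.48 and 11.54, which activates it, differed by -0.28 and 0.06 in the tumor pair.

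All 8 measured cathepsins, the proteases of lysosomes, were below 0, with a median of -0.81, and 4 were lower by 2-fold. *Ctsh* was at 9.07, 9.49, 10.50 and 8.70 and *Ctsd* at 12.52, 12.22, 13.13 and 12.12. *Ctsb* passed on a dimmer probe set, by -1.95, while its brightest gave 13.26 and 12.41. *Ctss*, at 11.49 and 8.99, is on the myeloid list too. *Adam19*, a membrane protease, was lower by 2.13-fold, at 11.06 and 9.97, and *Adam8*, which leukocytes also make, by 4.83-fold. Urokinase, *Plau*, passed on a probe set below 6 on every array.

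Of 14 protease inhibitors, 5 were lower and 0 higher, and the median was -0.48. *Slpi*, an inhibitor of leukocyte elastase, was at 10.26, 10.60, 11.19 and 8.61, a 5.95-fold difference. *Timp3*, the matrix-bound inhibitor of metalloproteinases, passed on 3 of its 4 probe sets, the widest at 11.87 and 10.49, and its brightest read 12.72 and 11.80. *Tfpi2*, an inhibitor of plasmin, was lower by 2.48-fold, at 8.27 and 6.96. *Timp1*, at 14.17 and 13.38, did not pass, and neither did *Timp2*, at 12.36 and 12.09.

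Since ETS factors are known to act on protease promoters beside AP-1, the promoters of *Mmp3*, *Mmp12* and *Mmp13*, the metalloproteinases that differed most, and of the urokinase receptor *Plaur* (lower by 2.07-fold, 9.99, 10.74, 10.57 and 9.52) are shown. The sequences are the 250 bases before the start from RefSeq, build GRCm38.p6, on the gene's strand, 5′ to 3′. Capitals mark the AP-1 letters TGANTCA and the ETS letters AGGAAG or CGGAAG. *Mmp3* lies on the plus strand at chr9:7445572-7445821, *Mmp12* at chr9:7347124-7347373, *Mmp13* at chr9:7272264-7272513 and *Plaur* at chr7:24462233-24462482, each also on the plus strand. *Mmp12* has another start, whose window held no AP-1 letters. Only windows with AP-1 letters are printed, so their presence in each printed sequence was set by the choice. Of the 7 lower Ras-ERK and AP-1 genes with a window, *Plaur* was the 1 that held them.
Mmp3: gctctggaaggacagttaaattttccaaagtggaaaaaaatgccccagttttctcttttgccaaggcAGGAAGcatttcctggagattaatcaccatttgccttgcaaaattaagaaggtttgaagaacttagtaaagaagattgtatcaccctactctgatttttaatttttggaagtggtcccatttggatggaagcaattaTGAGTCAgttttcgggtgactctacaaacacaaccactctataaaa
Mmp12: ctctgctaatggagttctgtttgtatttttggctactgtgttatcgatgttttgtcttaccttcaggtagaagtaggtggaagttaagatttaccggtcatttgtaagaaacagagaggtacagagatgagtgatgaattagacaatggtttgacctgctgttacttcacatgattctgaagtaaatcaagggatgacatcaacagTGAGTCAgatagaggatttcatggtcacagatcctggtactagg
Mmp13: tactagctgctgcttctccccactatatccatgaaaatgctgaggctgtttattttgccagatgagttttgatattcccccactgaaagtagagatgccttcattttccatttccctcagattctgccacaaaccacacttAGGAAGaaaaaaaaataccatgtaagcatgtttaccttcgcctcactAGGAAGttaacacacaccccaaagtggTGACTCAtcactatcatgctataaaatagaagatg
Plaur: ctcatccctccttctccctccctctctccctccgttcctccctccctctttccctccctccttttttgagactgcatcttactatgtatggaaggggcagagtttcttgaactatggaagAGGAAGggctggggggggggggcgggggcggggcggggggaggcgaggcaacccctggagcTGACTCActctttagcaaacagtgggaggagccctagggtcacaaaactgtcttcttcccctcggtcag

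The AP-1 letters began 46 bases before the start in *Mmp3*, 44 in *Mmp12*, 35 in *Mmp13* and 69 in *Plaur*. AGGAAG began 183 bases before the start in *Mmp3*, 109 and 62 in *Mmp13* and 130 in *Plaur*. Searched on both strands over windows from 250 bases before to 50 after a start, TGANTCA was in 7.81% of 32851 windows, AGGAAG in 35.4% and CGGAAG in 16.9%. Of the 12 lower proteases, 8 had a window, and 4 of the 8 held AP-1 letters (*Mmp3*, *Mmp12*, *Mmp13* and *Adam19*), against 1 of 17 proteases that did not pass (*Mmp10*). AGGAAG was in 6 of the 8 and 7 of the 17, any window of a gene being counted. AP-1 and ETS letters were in the same window in 2 of the 8 and 0 of the 17. In *Mmp12* and *Adam19* they lay in windows of different starts. Over all lower genes with a window, 49 of 320 held AP-1 letters, 15.3%, over higher genes 5 of 64, 7.81%, and over all genes of the array with a window 7.54%. For AGGAAG the shares were 48.4%, 34.4% and 37.6%, and for CGGAAG they were 13.4%, 12.5% and 27.1%. For either set of ETS letters they were 55.0%, 43.75% and 54.3%, so lower genes were near the share of the array. These are descriptions of letters in a window, and their part in the differences was not tested.

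Genes of vessel formation were lower in part. Of 35 measured, 7 were lower and 1 higher (median difference -0.25). *Vegfc*, the growth factor of lymphatic vessels, was at 8.01, 8.83, 8.89 and 6.98, a 3.74-fold difference, and lower on all 3 of its probe sets. *Edn1*, the vasoconstrictor endothelin, was at 7.53, 7.97, 8.15 and 6.77, and the platelet-derived growth factor *Pdgfb* differed by -1.06. *Cd36*, a receptor for thrombospondin and lipids, was at 8.45, 8.64, 10.61 and 6.88, a 13.3-fold difference. *Vegfa*, the main vessel growth factor, was at 9.19 and 9.31, and *Thbs1*, the thrombospondin that restrains vessels, at 13.77 and 13.46. *Hgf*, a stromal growth factor for epithelium and endothelium, was the higher member, at 7.33, 7.79, 7.08 and 8.35. Of 39 guidance cues and receptors, 1 was lower and 1 higher, 2.56% each. The lower share was near the 2.3% of all genes. *Ntn4*, the netrin of basement membranes, was at 7.94 and 5.44 in the tumor pair, and the receptor *Epha3* was higher on another probe set, at 5.72 and 7.01.

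Secreted proteins of the acute phase and of complement were lower, 12 of 32 with 1 higher, and the median was -0.67. *Clu*, the extracellular chaperone clusterin, was at 7.81, 10.07, 10.16 and 7.09 on its brightest probe set. *Rarres2*, the chemoattractant chemerin, was at 9.76, 9.13, 11.34 and 8.92 on a probe set that may match several transcripts (_s_at), and its probe set of another kind, at 3.84 and 3.90, differed by 0.061. *Saa3*, a serum amyloid, was at 10.23 and 8.0 in the tumor pair. *Cd59a*, which shields cells from complement, was at 9.90, 10.97, 10.80 and 9.52, and the protease *C1s1* was lower by 2.1-fold. Of the 12, 4 are also on the myeloid list (*C3ar1*, *C5ar1*, *C1qb* and *Lyz2*). *Masp1*, a protease of the lectin pathway, was higher, at 9.18, 10.44, 8.08 and 9.38, and was higher in normal *Ets2* null fibroblasts as well.

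Chemokines and cytokines went both ways. Of 45 chemokines and receptors, 9 were lower and 1 higher, and of 46 cytokines and receptors, 7 were lower and 2 higher. Their medians were 0.05 and -0.05, and that of the chemokines was -0.38 over genes with the higher array at 6 or more. *Cxcl12*, the ligand of stromal cells for *Cxcr4*, was at 10.91, 9.15, 10.49 and 7.69, lower without *Ets2* in both pairs and by 7-fold in tumor fibroblasts. *Cxcr4* itself was at 6.68 and 4.92. Of the 9 lower, 4 are on the myeloid list (*Ccl6*, *Pf4*, *Ccr1* and *Ccl9*). *Ccl7*, a monocyte attractant, was higher, at 11.23, 11.18, 10.63 and 11.77, and *Ccl2*, another one, was at 11.24 and 11.84. *Il11* was lower by 2.02-fold, at 8.62 and 7.60, *Csf1*, the growth factor of macrophages, was lower on another probe set, at 11.68 and 10.66, and *Il33*, an alarmin, was at 4.76 and 6.68. *Il6*, at 7.67 and 8.19, did not pass. *Tnfsf11*, the osteoclast factor RANKL, was higher on probe sets below 6.

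Myeloid genes made up the group with the most members past 2-fold. Of 95 measured, 51 were lower and 0 higher, and the median difference was -0.98, beside -0.11 in normal fibroblasts. The summed linear level of the list was 41184, 35849, 64903 and 31023, highest in tumor fibroblasts with *Ets2* and lowest in tumor *Ets2* null fibroblasts, and 86 and 68 of the 95 were at log2 6 or more in those arrays. *Cd68*, a lysosomal protein of macrophages, was at 8.67, 8.70, 10.56 and 8.21, and *Tyrobp*, their signaling adaptor, at 9.01, 8.70, 10.27 and 8.04. The integrin subunit *Itgb2* was lower by 4.41-fold, the lectin receptor *Clec7a* by 5.52-fold and the mannose receptor *Mrc1* by 3.22-fold. *Csf1r*, the receptor that defines macrophages, was at 9.70, 10.29, 10.58 and 9.60, which is 1.97-fold on this probe set and passed on another. *Adgre1* at 7.23 and 6.62, the factor *Spi1* at 6.90 and 6.23, and *Cd14* at 8.66 and 8.56 did not pass. In RNA of a whole culture, fewer cells of a type and less RNA per cell cannot be told apart. The part of myeloid RNA in the protease, complement and chemokine differences was not tested. Of the lower genes 51 were on the myeloid list, and 104 on some list of another cell type. Without the genes of those lists, 315 lower and 80 higher genes were left. The 315 still held genes that phagocytes or other immune cells make but that are on none of those lists, as *Msr1*, *Stab1*, *Hk3* and *Blnk*.

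Other genes of phagocytes were measured as well. Of 17 genes of scavenging and lipid uptake, 6 were lower and 1 higher (*Olr1*). The lower ones included *Msr1*, at 8.49, 8.45, 9.89 and 8.15, and *Stab1*, by 2.06-fold. Of 14 osteoclast genes, 4 were lower (*Atp6v0d2*, *Gpnmb*, *Acp5* and *Mmp9*), the first 3 shared with the myeloid list, and the median was -0.30, or 0.10 without genes on lists of other cell types. The 12 genes of MHC class II presentation had a median of 0.03, and *Ctss* was the member past 2-fold. Of 21 genes of eicosanoid synthesis, 2 were lower, *Pla2g7* and *Alox5ap*, both on the myeloid list.

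Epithelial markers were lower without *Ets2* in tumor fibroblasts and higher without it in normal fibroblasts. Of 32 luminal markers, 11 were lower and 1 higher (median difference -0.34), and of 26 basal markers, 9 were lower and 0 higher (median difference -0.60). In normal fibroblasts 9 and 10 of them were higher. *Krt7* was at 6.97, 8.32, 8.52 and 6.28, *Krt19* at 8.41, 8.79, 7.96 and 6.94 and *Itga6*, the laminin receptor of basal cells, at 7.37, 7.80, 7.82 and 6.38. The summed linear level was 2201, 4459, 3801 and 1957 for luminal and 1647, 2823, 2392 and 1516 for basal markers, so the normal array with *Ets2* and the tumor *Ets2* null array were the low ones. Among defining markers, *Krt18* was at 5.21, 8.78, 8.52 and 5.01 and *Krt14* at 5.54, 8.27, 8.26 and 4.93. *Krt8* was at 6.65, 9.73, 9.25 and 6.15. *Epcam* was at 5.38, 7.83, 8.48 and 5.63 on the probe set that differed most, while its brightest gave 8.29, 7.98, 8.32 and 8.10. These keratins were low on the normal array with *Ets2* and the tumor *Ets2* null array. *Cdh1* and the basal factor *Trp63* were below 6 on every array, and *Krt5* was at 6.59, 8.28, 7.21 and 6.38. The luminal list's higher member was *Pgr*, the progesterone receptor, at 6.94, 7.02, 6.59 and 7.81.

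Genes of skeletal muscle, 16 of 50, were lower, with a median of -0.33, and with the higher array at 6 or more it was -1.38. The light chains *Mylpf*, at 7.61, 6.07, 8.34 and 5.30, and *Myl1*, at 7.88, 6.22, 8.23 and 5.43, were lower without *Ets2* in both pairs. *Actc1*, an actin of striated muscle, was at 8.79 and 6.0 and the troponin *Tnnc1* at 8.01 and 6.21. The factor *Myog* was at 7.31 and 5.18, and *Myod1* was below 6 on every array. The summed level was 11480, 15908, 13139 and 7646, and such a sum is weighted to bright genes. In normal fibroblasts 7 of the 50 were lower without *Ets2* by 2-fold, though the sum was higher. The 2 that were higher there were *Ankrd1* and *Acta1*, the latter at 10.34 and 11.89. Of 28 endothelial markers 6 were lower, with a median of -0.31 against -0.61 in normal fibroblasts, and *Cdh5* and *Pecam1* were at 6.17 and 5.98 in tumor fibroblasts with *Ets2* and below 6 in those without. Of 23 adipocyte genes 3 were lower (*Klf5*, *Fabp5* and *Fabp4*), of 18 Schwann genes 1 (*Fabp7*), of 13 mast cell genes 1 (*Tpsab1*) and of 17 lymphocyte genes 0.

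**Figure D2:**
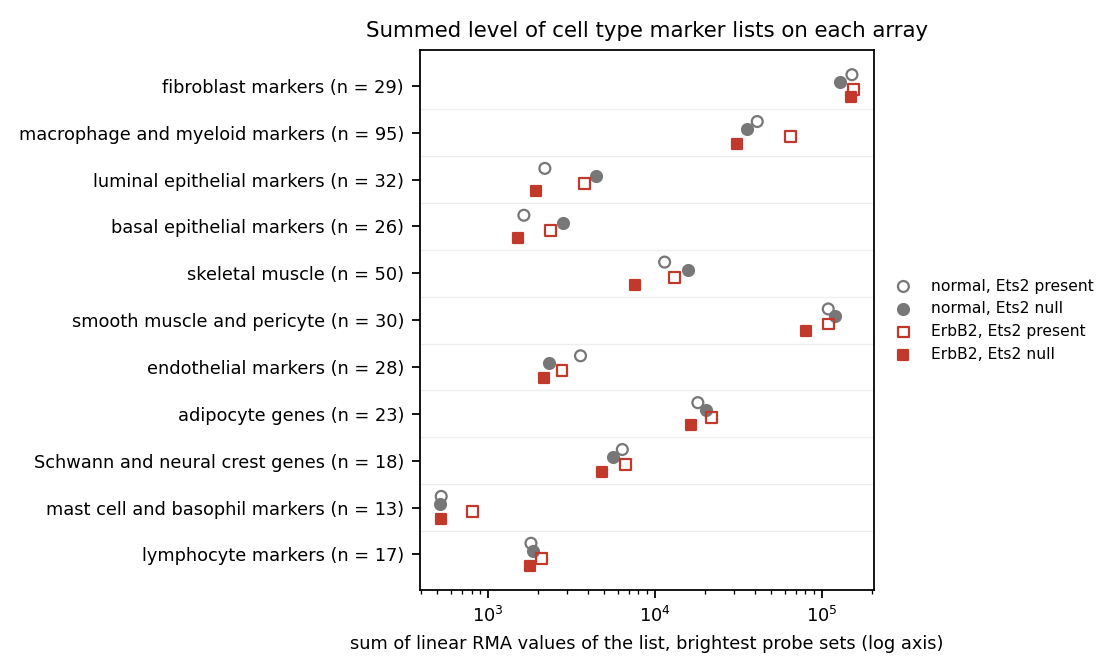
Sums of the linear RMA values of each marker list, 1 brightest probe set a gene, on a log axis, with 1 point for each of the 4 arrays (open, *Ets2* present; filled, *Ets2* null; circles, normal; squares, *ErbB2*). Fibroblast sums lie together between 129200 and 154681, myeloid sums are lowest in the *ErbB2 Ets2* null array, and both epithelial sums are higher in normal *Ets2* null fibroblasts and in *ErbB2* fibroblasts with *Ets2*.

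Genes that tie the actin cytoskeleton to the matrix were lower together. The list of adhesion plaque proteins, targets of the serum response factor (SRF) and caveolae was put together after the values were seen, so its counts only describe it. Of 61 genes measured, 21 were lower and 0 higher, and the median was -0.58. Of the 21, 4 are also on the skeletal or smooth muscle lists (*Acta2*, *Tpm1*, *Ankrd1* and *Acta1*), and the part of muscle RNA in them was not tested. *Srf*, the factor that drives actin genes when cells spread and pull, was at 8.41, 8.67, 9.02 and 7.74, a 2.43-fold difference on its brightest probe set. *Tln1*, talin, which links integrins to actin, was at 10.88 and 9.81, and *Vcl*, vinculin, was at 12.75 and 11.78 on its brightest probe set, 1.97-fold, and passed on its other. *Lims2*, *Pdlim5*, *Lasp1* and *Csrp1*, LIM proteins of actin fibres, were lower by 3.17-fold, 2.03-fold, 2.06-fold and 2.01-fold. *Zyx* at 12.18 and 11.40, *Ilk* at 11.40 and 10.72 and *Flna* at 11.78 and 11.35 did not pass.

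Contractile genes were lower on some probe sets. *Fhl1*, a LIM protein of stretched cells, was at 11.17, 12.43, 12.24 and 10.82. *Tpm1*, tropomyosin, was at 14.12 and 13.14 on its brightest probe set. *Acta2*, the actin of myofibroblasts, was at 14.24, 14.30, 14.24 and 13.99 on its brightest probe set and passed on its other 2, at 8.89 and 6.70 and at 8.11 and 6.26. *Tagln* at 14.20 and 13.75, *Cald1* at 12.77 and 12.67 and *Cnn1* at 10.76 and 11.22 did not pass. Of the 30 smooth muscle and pericyte genes, 6 were lower, and the pericyte marker *Rgs5* was lower on all 4 probe sets, at 7.84 and 5.29.

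Caveolae, the small pits of the cell membrane, were lower in 4 of 7 genes. *Cav1*, which forms their coat, was at 10.50, 11.01, 10.51 and 9.30, its partner *Cav2* at 7.99, 8.22, 8.63 and 7.43, and *Cavin2* at 10.31, 10.65, 10.39 and 8.84. *Cav3*, the muscle form, was below 6. *Cavin1*, at 10.04 and 9.65, did not pass. In normal fibroblasts the 3 bright genes were higher without *Ets2* by 0.23 to 0.51.

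The *Srf* promoter is shown because SRF acts through CArG boxes and regulates its own gene. It lies on the minus strand at chr17:46556163-46556412 (GRCm38.p6, from RefSeq, 250 bases before the start), and capitals mark its CArG boxes, 82 and 62 bases before the start.
Srf: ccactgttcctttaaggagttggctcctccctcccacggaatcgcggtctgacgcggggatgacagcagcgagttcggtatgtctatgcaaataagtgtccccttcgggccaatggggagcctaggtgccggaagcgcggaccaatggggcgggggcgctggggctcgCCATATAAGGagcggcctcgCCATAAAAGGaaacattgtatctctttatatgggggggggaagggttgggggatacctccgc

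A CArG box was in 4 of 20 lower genes of this list with a window and in 5 of 29 that did not pass, against 1.58% of genes on the array with a window. The list holds known SRF targets, so a share above that of the array was set by how it was put together, and the part of the boxes in the differences was not tested.

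Integrins and adhesion receptors followed in part. Of 35, 7 were lower and 1 higher. *Itga5*, the fibronectin receptor subunit, was at 10.05, 9.84, 9.93 and 8.71, *Alcam* at 8.24, 8.71, 8.83 and 7.60 and *Itga8* at 8.77, 9.43, 9.18 and 8.15. *Cd44*, the hyaluronan receptor, passed on another probe set, at 11.11 and 10.06. *Vcam1*, a ligand of leukocyte integrins, was higher, at 8.74, 7.88, 7.82 and 9.11.

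The structural matrix was lower in 14 of 95 genes and higher in 4, with a median of -0.25, close to its median of -0.23 in normal fibroblasts. The lower members included *Tnc*, the tenascin of wounds and tumor stroma. *Tgm2*, which crosslinks matrix proteins, was at 12.20, 12.69, 12.21 and 10.79. *Efemp1*, an elastic fibre protein, was at 8.67, 8.69, 9.0 and 7.08, and *Sdc4*, a heparan sulfate co-receptor of integrins, at 10.58, 11.13, 10.89 and 9.58. Basement membrane collagens *Col15a1* at 7.86, 6.15, 8.44 and 7.05 and *Col18a1* at 9.0, 8.29, 9.61 and 8.50 were lower in the tumor pair, and *Col4a1* passed on another probe set, at 11.11 and 10.10. The matricellular *Ccn1* was lower by 2.31-fold on a bright probe set, at 13.61 and 12.41.

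Of the 4 higher matrix genes 2 were small proteoglycans. *Ogn*, osteoglycin, was at 8.03, 8.12, 7.37 and 8.78, and *Aspn*, asporin, at 7.65, 7.19, 7.72 and 9.38. *Ccn3* was at 8.90, 6.47, 7.30 and 10.24, higher in the tumor pair and lower in the normal pair. *Lama1*, a laminin chain, was at 6.88, 6.29, 6.15 and 7.54. The interstitial collagens that make up most of the matrix did not pass, with *Col1a1* at 13.76 and 13.58 and *Col3a1* at 13.93 and 13.72, and *Fn1*, fibronectin, was at 13.55 and 13.86.

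**Figure D3:**
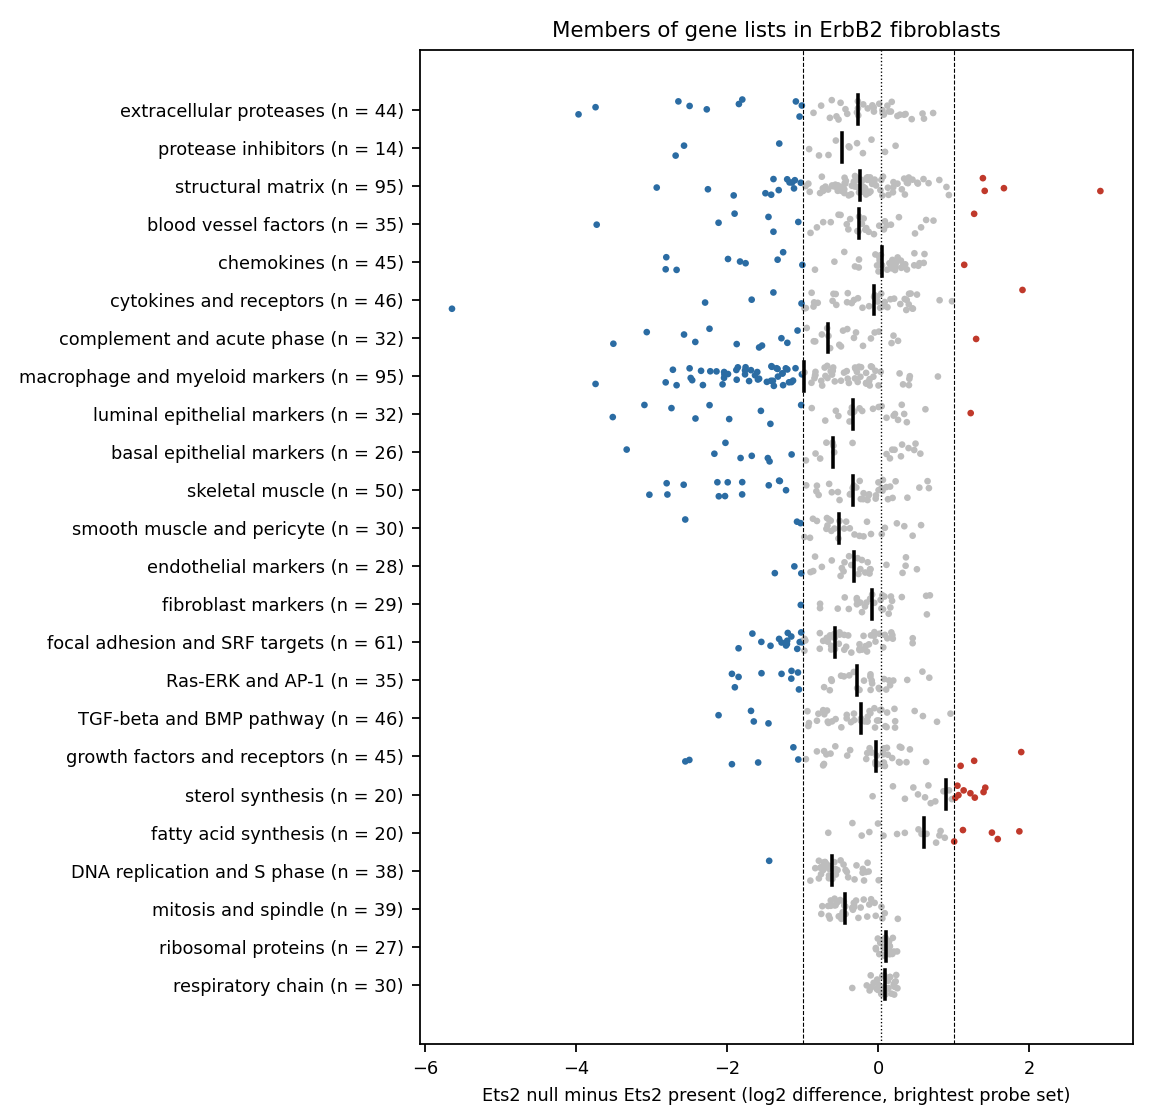
Each point is 1 gene of a list on its brightest probe set, with the log2 difference, *Ets2* null minus *Ets2* present, in *ErbB2* fibroblasts on the horizontal axis (counts in the text use any probe set, so some exceed the points past the lines). Black bars are list medians, dashed lines mark 2-fold, and the dotted line is the median of all genes, 0.04. Myeloid markers have a median of -0.98, sterol synthesis genes of 0.90, and ribosomal proteins and the respiratory chain stay within 2-fold.

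Early response genes of the Ras-ERK pathway, in which *Ets2* itself is a target of phosphorylation, were lower in 9 of 35 cases and higher in 0, and the median was -0.28. The AP-1 members were *Fos*, at 8.41, 8.72, 9.28 and 7.43, a 3.6-fold difference, *Atf3*, at 7.05, 7.23, 8.25 and 6.70, and *Maff*, by 2.09-fold. Each read highest in tumor fibroblasts with *Ets2* or, for *Maff*, in normal *Ets2* null fibroblasts. The phosphatases that switch off MAP kinases were lower too, *Dusp1* at 10.46, 10.78, 11.07 and 9.79 and *Dusp6* at 8.38, 8.62, 8.64 and 7.49. *Ereg*, the ErbB ligand epiregulin, was at 7.94, 9.20, 8.13 and 6.19, and *Phlda1*, induced by growth factors, at 9.08, 9.59, 9.67 and 7.77. Not every member was lower. *Egr1* was at 9.41 and 9.42, *Junb* at 8.39 and 8.14, *Jun* at 9.25 and 8.61 and *Fosl1* at 8.45 and 8.12. The feedback inhibitors *Spry2* and *Spry4* differed by 0.59 and 0.68.

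The TGF-beta pathway was lower in some of its ligands and targets. Of 46 genes of the TGF-beta and BMP pathway 6 were lower and 1 higher (median difference -0.23), and the 10 targets were all below 0, with a median of -0.70. *Tgfb3* was at 10.90, 11.34, 11.96 and 9.84, a 4.33-fold difference, and *Tgfb2* at 8.57, 9.34, 9.32 and 7.87 and lower on all 4 of its probe sets. *Tgfb1*, at 8.68 and 8.27, did not pass. *Fst*, follistatin, which binds activin, was at 8.64, 9.66, 9.70 and 8.05. The BMP targets *Id2*, at 8.55, 9.59, 10.13 and 8.44, and *Id4*, on another probe set at 8.93 and 7.41, were lower. *Ccn2*, a target of TGF-beta and SRF, was at 14.02 and 13.29. *Acvr2a*, an activin receptor, was higher on another probe set, at 8.12 and 9.17.

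**Figure D4:**
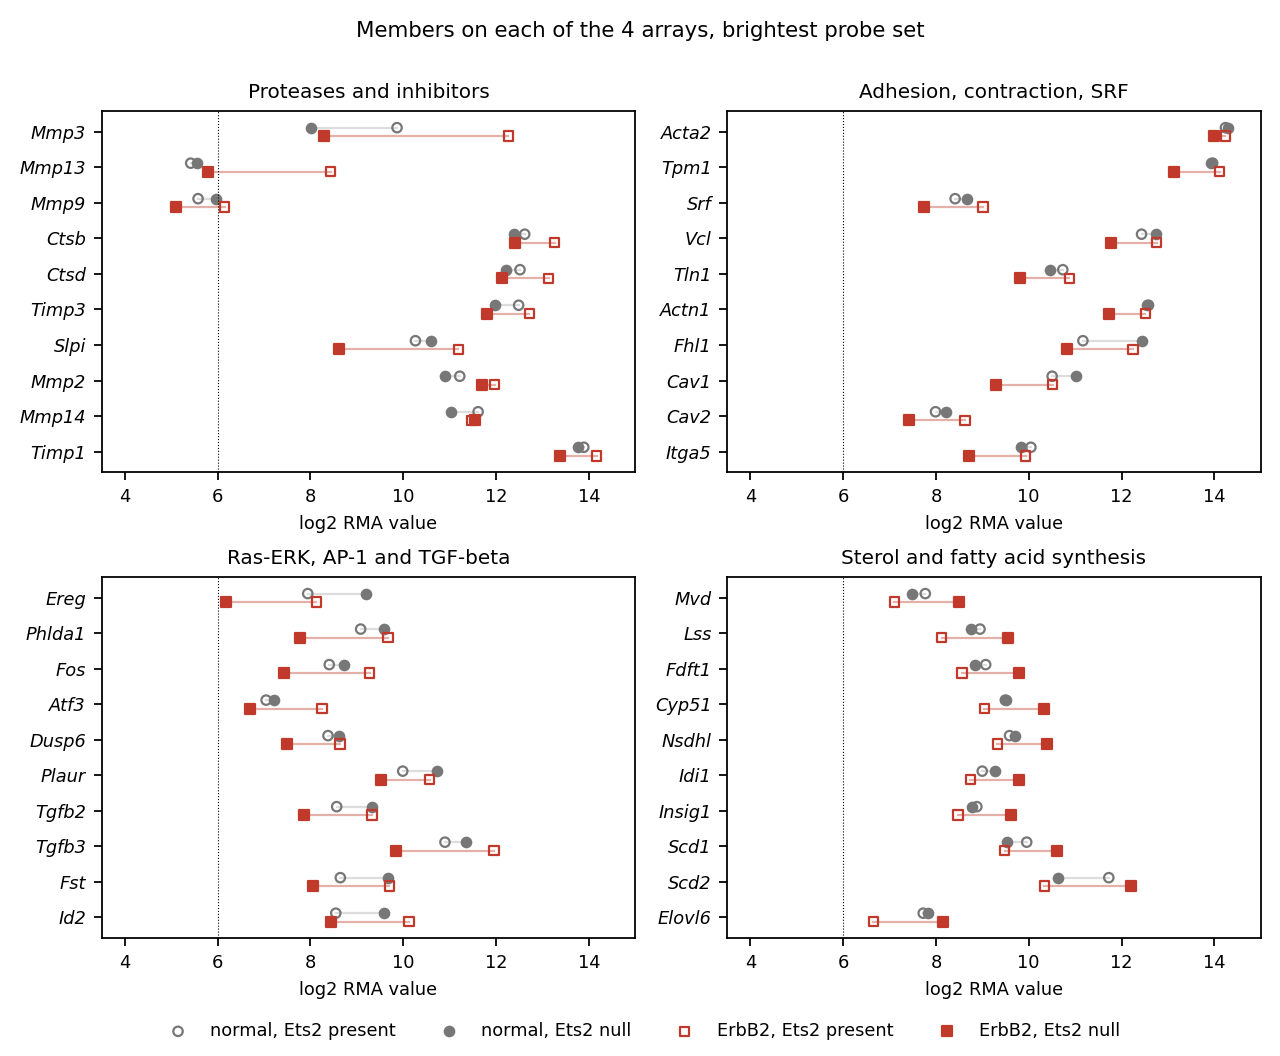
Log2 RMA values on the 4 arrays for 10 genes in each of 4 groups, brightest probe set, with lines joining *Ets2* present (open) to *Ets2* null (filled) in normal (grey circles) and *ErbB2* fibroblasts (red squares), and a dotted line at 6. Most lower genes have their lowest value in the *ErbB2 Ets2* null array, as *Srf* at 7.74, and sterol genes have their highest value there, as *Lss* at 9.54.

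Growth factors went both ways. Of 45 growth factors and receptors, 6 were lower and 3 higher. *Nppb*, a natriuretic peptide, was at 6.56, 7.83, 8.52 and 5.96 and the intracellular FGF homolog *Fgf13* at 6.34, 8.02, 8.69 and 6.18. *Fgf18* was at 7.27 and 5.68 and *Fgf21* at 8.39 and 7.27. The higher ones were *Fgf7*, a stromal factor that acts on epithelium, at 9.87, 9.80, 8.76 and 9.85, *Hgf*, given above, and *Ptn*, pleiotrophin, at 5.36, 5.43, 5.44 and 7.34. On a separate list of 37 genes of the IGF axis and imprinted growth genes, 1 was lower and 1 higher, 2.7% each. The lower share was near the 2.3% of all genes. *Igf1* was higher on all 4 probe sets, at 9.95, 10.18, 9.13 and 10.38, and *Igf2* was lower, at 7.13 and 6.02. For *Fgf7* and *Igf1* the tumor array with *Ets2* was the low one of the 4.

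Wnt and retinoid genes also went both ways. Of 50 Wnt genes 5 were lower and 3 higher. The ligand *Wnt4* was at 8.52, 9.16, 9.76 and 7.97, and the antagonist *Sfrp2* was lower without *Ets2* in both pairs, at 8.38, 6.33, 9.65 and 8.49. *Lgr5*, a receptor for R-spondins, was at 5.58 and 6.84, and its ligand *Rspo2* was higher on a probe set below 6. Of 21 retinoid genes 5 were lower and 1 higher. *Aldh1a1* was at 8.77, 10.43, 8.78 and 7.18, while *Aldh1a2*, which also makes retinoic acid, was at 4.63 and 6.79. *Rbp4*, the carrier of retinol, was at 6.73, 7.19, 8.20 and 6.33.

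Cholesterol and fatty acid synthesis were higher without *Ets2* in tumor fibroblasts. Of 20 sterol genes 9 were higher and 0 lower, with a median of 0.90 against -0.02 in normal fibroblasts, and 19 of the 20 were above 0. Of 20 fatty acid genes 6 were higher and 0 lower, with a median of 0.61. The higher sterol genes were spread from *Hmgcs1* to *Nsdhl*, but not every step passed. *Mvk*, *Msmo1* and *Tm7sf2* did not, and neither did *Ebp*, *Sc5d*, *Dhcr7* and *Hsd17b7* of the last steps. *Hmgcs1*, which makes the precursor of mevalonate, was at 10.95, 10.80, 10.73 and 11.71 on its brightest probe set, 1.97-fold, and past 1.5-fold on all 5 probe sets. *Mvd* was at 7.77, 7.49, 7.10 and 8.50, *Idi1* at 9.0, 9.28, 8.74 and 9.79 and *Fdft1*, the first step toward sterols alone, at 9.07, 8.85, 8.57 and 9.79. *Lss*, which closes the sterol rings, was at 8.95, 8.75, 8.12 and 9.54 and *Cyp51* at 9.50, 9.51, 9.05 and 10.33. *Sqle* at 9.51 and 10.26 and *Dhcr7* at 7.88 and 8.57 did not pass.

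The feedback protein *Insig1* was higher too, at 8.88, 8.77, 8.48 and 9.61, while *Srebf2*, which drives these genes, was at 8.56 and 8.75. Among fatty acid genes the desaturases *Scd2*, at 11.72, 10.64, 10.34 and 12.21, and *Scd1*, at 9.96, 9.52, 9.48 and 10.60, and the elongase *Elovl6*, at 7.73, 7.84, 6.65 and 8.16, were higher. *Fasn* was at 9.15 and 9.97 and *Acly* at 10.01 and 10.89, which did not pass. For each of *Mvd*, *Fdft1*, *Lss*, *Cyp51* and *Insig1*, the tumor array with *Ets2* was the lowest and the tumor *Ets2* null array the highest of the 4, with both normal arrays between.

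SREBP factors act on these genes through sterol elements. TCACNCCAC was searched on both strands and was in 1.24% of windows and in 1 of the 8 higher sterol genes that had a window, *Hmgcs1*, at chr13:119690101-119690350 on the plus strand (GRCm38.p6, RefSeq, 250 bases before the start). The letters, in capitals, began 137 bases before the start.
Hmgcs1: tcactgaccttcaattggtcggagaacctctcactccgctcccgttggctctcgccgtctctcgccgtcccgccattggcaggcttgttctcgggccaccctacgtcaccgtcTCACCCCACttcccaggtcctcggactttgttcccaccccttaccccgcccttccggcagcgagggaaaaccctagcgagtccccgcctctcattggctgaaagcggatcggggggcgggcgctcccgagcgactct

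Most cell cycle genes were lower, nearly all by less than 2-fold. Of 38 genes of DNA replication, 37 were below 0 with a median of -0.62 against -0.03 in normal fibroblasts, and 3 were lower by 2-fold. *Ccne2*, a cyclin of S phase entry, was at 6.93 and 5.48, and the helicase subunits *Mcm6* and *Mcm4* passed on dimmer probe sets, by -1.22 and -1.17. *Mcm3* was at 9.51 and 8.61 and *Pcna* at 12.13 and 11.56. Of 39 genes of mitosis 35 were below 0, with a median of -0.44, and none passed, with *Mki67* at 9.93 and 9.44. *Ccnd1* passed on another probe set, at 8.25 and 7.24. The tumor array with *Ets2* was the high one, *Mcm3* having read 8.82 and 8.68 in normal fibroblasts.

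Several groups held few genes past 2-fold. Of 24 ETS factors none passed, and *Ets1*, the nearest relative of *Ets2*, was at 8.40, 8.33, 8.39 and 7.83. Of 27 ribosomal proteins and 30 respiratory chain genes none passed, with medians of 0.10 and 0.09. Of 36 interferon response genes 1 was lower, *Gbp2*, at 10.07 and 8.60. Of 38 hypoxia and glycolysis genes 1 was higher, *Ndrg1*, on another probe set at 6.67 and 7.79, and of 35 Hox and positional genes 1 was higher, *Hoxc10*, at 8.01, 8.10, 7.46 and 8.84. The metallothioneins, which bind zinc and copper, were the members of the Nrf2 and metal list that passed, 2 of 21, with *Mt1* at 10.58 and 12.08 in the tumor pair (its other probe set differed by 0.44) and *Mt2* at 10.51 and 11.71. Of 34 amino acid and stress genes, *Ddit3* was higher on another probe set, at 7.50 and 8.55, and *Fgf21* lower. Of 14 S100 genes, *S100a3* was higher, at 6.38, 9.83, 5.21 and 9.68, and *S100a8* lower on values below 6. *S100a4*, the gene of Fibroblast Specific Protein 1, was at 13.73, 14.08, 13.49 and 13.34.

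The 2-fold tier also held genes on no list, of which those with the largest differences and the higher array at log2 8 or more were named by rule, with values on the probe set that differed most. Among the lower, *Fscn1*, fascin, which bundles actin in protrusions, differed by -1.95, and its brightest probe set was at 12.50, 12.27, 12.78 and 11.34. *Serpina3n*, an acute-phase protease inhibitor, was at 10.17, 9.08, 11.10 and 9.19, and *Mgp*, matrix Gla protein, which restrains calcification, at 10.62, 9.23, 11.77 and 9.95, both lower without *Ets2* in normal fibroblasts too. *Cthrc1*, a secreted protein of activated fibroblasts, was at 9.20, 9.47, 11.17 and 9.45, and *Crim1*, a membrane protein that binds growth factors, at 9.43, 9.83, 9.87 and 8.05. *Dmd*, dystrophin, was at 8.12 and 6.34 in the tumor pair, *Tnfrsf21*, a death receptor, at 8.66 and 6.99, and *Crispld2*, a secreted protein, at 8.96 and 7.34. Among genes made by immune cells, *Hk3*, a hexokinase of leukocytes, was at 6.95, 6.54, 8.19 and 6.22. *Blnk*, an adaptor of B cells and macrophages, was at 6.65, 6.62, 8.17 and 6.54. *Siglecg*, also made by immune cells, was at 9.39, 10.16, 10.21 and 8.42, so unlike the others it was bright in normal fibroblasts too. The other 4 were *Fam107b* by -1.84, *Rnf128* by -1.82, *Asic3* by -1.74 and *Plcxd2* by -1.61.

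Among the higher genes on no list, 10 met the rule. *Kcne4*, a potassium channel subunit, was at 8.57, 8.45, 8.36 and 10.13, and *Plac8* at 11.27, 11.27, 10.15 and 11.72. *Col8a1*, a short-chain collagen, was at 9.57, 8.71, 8.40 and 9.98 and *C1qtnf3*, a secreted C1q-like protein, at 6.47, 6.42, 6.59 and 8.07. *Cyp7b1*, which hydroxylates oxysterols, was at 7.87, 6.06, 8.08 and 9.50, higher in the tumor pair and lower in the normal pair. *Csgalnact1*, an enzyme of chondroitin sulfate synthesis, was higher by 1.38 and *Fam20a* by 1.24. *Dbp*, a clock output factor, was at 7.89, 6.85, 7.32 and 8.35. *Kif26b* was higher by 1.02, and *Serpinb9*, an inhibitor of granzyme B, just passed.

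In normal fibroblasts, on arrays separate from the tumor pair and with any probe set counted, 82 genes were lower without *Ets2* by 2-fold, 0.451% of those measured, and 151 were higher, 0.83%. Of the 419 genes lower in tumor fibroblasts, 59 were higher in normal fibroblasts, 14.1% of the 419 and 39.1% of the 151, and 27 were lower in both, 6.44% of the 419 and 32.9% of the 82. Of the 81 genes higher in tumor fibroblasts, 10 were lower in normal fibroblasts and 3 higher. In all, 333 of the 419 and 68 of the 81 did not pass 2-fold in normal fibroblasts. With 1 array a genotype the difference between the pairs was not tested.

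Of the 59 genes that were lower in tumor and higher in normal *Ets2* null fibroblasts, 15 were on the epithelial lists, *Krt8*, *Krt18*, *Krt14* and *Epcam* among them, and the part of epithelial RNA in the other 44 was not tested. The widest tumor difference was that of *Tslp*, a cytokine that epithelium also makes, by -5.65, with 1.73 in normal fibroblasts. Genes of the signaling lists included *Nppb*, *Fgf13*, *Tgfb2*, *Fst*, *Id2*, *Id4* and *Ereg*. *Ankrd1*, a stretch-response protein of muscle and fibroblasts, was at 11.34, 12.46, 11.60 and 10.29. *Anxa1*, an annexin, differed by -1.62 and 1.39 in tumor and normal fibroblasts, on a probe set dimmer than its brightest. The 27 lower in both held matrix and muscle genes, *Mmp3*, *Cxcl12*, *Mgp*, *Sparcl1*, *Prg4*, *Col5a3*, *Col15a1*, *Sfrp2*, *Lum*, *Mylpf* and *Myl1* among them. *Col5a3*, a fibrillar collagen chain, was at 8.82, 7.63, 9.99 and 8.50, and *Prg4*, the lubricant of joints and tendons, at 6.43, 5.34, 7.80 and 4.87. The 3 higher in both were *S100a3*, *Masp1* and *Myom1*, a muscle protein, by 1.04 in tumor and 1.81 in normal fibroblasts.

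**Figure D5:**
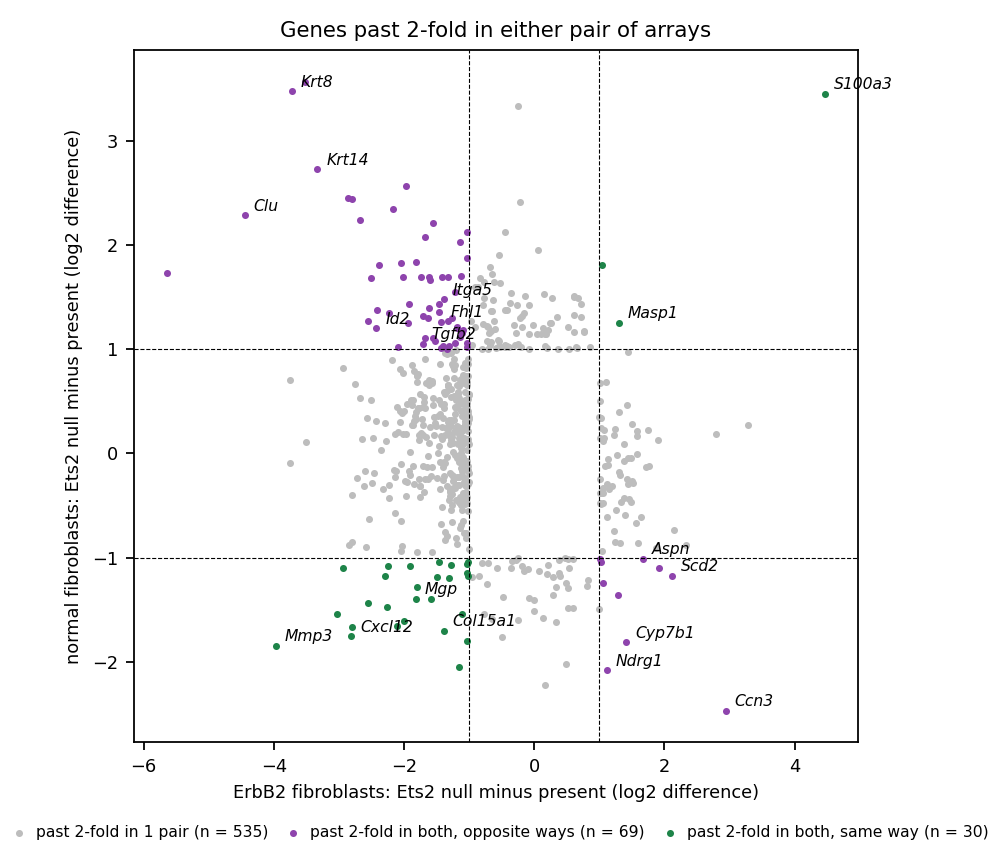
Genes past 2-fold in either pair of arrays, with the log2 difference (*Ets2* null minus *Ets2* present) in *ErbB2* fibroblasts on the horizontal and in normal fibroblasts on the vertical axis, each on the probe set that differed most in that pair, and dashed lines at 2-fold. Purple marks the 69 genes past 2-fold in opposite directions, green the 30 past 2-fold in the same direction, and grey those past 2-fold in 1 pair.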

How the data were processed

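RNA of cultured mammary fibroblasts was hybridised to 4 Affymetrix arrays, 1 a genotype. The authors deposited log2 values made with RMA, which corrects background, quantile-normalizes the arrays and summarises each probe set. For this step the software was not named in the labels or methods. It gives arrays nearly the same distribution (medians 5.51 to 5.54 here), so a shift of most genes together would be lost.

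Gene names came from GEO's platform annotation, and symbols were updated through the gene identifier where RefSeq (GRCm38.p6) holds it, for 34754 of the 34958 singly named probe sets. A further 932 carried several symbols and 9211 were unnamed here, and these were left out. Differences were *Ets2* null minus *Ets2* present, in Python 3.11.15 with pandas 2.3.3, numpy 2.4.6, statsmodels 0.14.6 (loess, span 0.4) and matplotlib 3.10.9. A gene passed at a log2 difference of 1 on any probe set. Single-gene values and list medians used a gene's brightest probe set (by mean of the 4 arrays), unless another is stated. Precision is limited by the number of arrays, and no test was run.

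The comparison, the 44 gene lists and the rule for named genes were chosen with earlier results of these data known, and 1 more list (focal adhesion and SRF targets) was put together after the values were seen. Named genes were *Ets2*, list members past 2-fold, contrasts that did not pass, up to 15 genes a side on no list, and the 3 genes on each side of the threshold. Genes named in the comparison with normal fibroblasts beyond these were chosen after their values were seen. Alternatives were thresholds of 1.5-fold and 3-fold, a floor at log2 6, median centring, quantile normalization, loess, leaving out _x_at and _s_at probe sets, another choice of probe set, and leaving out markers of other cell types. The steps were tested on simulated data.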

Additional observations from a re-analysis of the deposited data

Results flagged for a closer look

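In all, 69 genes passed 2-fold in opposite directions in *ErbB2* and normal fibroblasts, 59 of them lower in the tumor pair. The difference between the pairs was not tested, since each has 1 array a side.

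The median difference of luminal epithelial markers was -0.34 in tumor and 0.24 in normal fibroblasts, and that of basal epithelial markers was -0.60 and 0.47. The Ras-ERK and AP-1 list had a median of -0.28 in tumor and 0.24 in normal fibroblasts. These differences were not tested either.

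Probe sets outside the comparison held differences of the same size in tumor fibroblasts. Of the 932 with several symbols, 13 were lower and 2 higher by 2-fold, and of the 9211 unnamed here, 51 were lower and 15 higher.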

How the results depend on the processing

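The count of genes lower without *Ets2* in tumor fibroblasts was 1422 at 1.5-fold and 148 at 3-fold, and that of higher genes was 773 and 17. At 2-fold, the other alternatives gave 315 to 453 lower and 62 to 95 higher genes. Quantile normalization kept 375 of the 419 lower and 76 of the 81 higher genes, and median centring kept all 419 and 66. Of 305 list medians under the alternatives, 300 moved by less than the robust SD of the differences, 0.27, and 5 moved by more. With the higher array at log2 6 or more, the median was -0.38 for chemokines, -0.70 for osteoclast and giant cell genes, -1.38 for skeletal muscle and -0.32 for Schwann and neural crest genes. Without genes on lists of other cell types, the osteoclast median was 0.10. The 0.27 is a spread over single probe sets, so it is a loose limit for a list median. A change of sign was counted only for the larger list medians. Small ones changed sign within the limit, as ETS factors from -0.14 to 0.01 under the mean of a gene's probe sets. The Wnt median went from 0.04 to -0.08 with the higher array at log2 6 or more. Among 193 named genes, a change of sign was counted only where the brightest probe set differed by 1 or more. Other named genes were not checked for it. By that rule 1 turned, *Rarres2*, at 0.061 without its _s_at probe sets, which left a single probe set at 3.84 and 3.90. Of 964 values of the 193 genes, 54 moved by more than 0.27, 44 of them under the mean of a gene's probe sets. Counts of genes past 2-fold in both pairs, tried after the data were seen, were 47 to 68 in opposite and 24 to 27 in the same direction.

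No paired analysis was possible because each genotype has 1 array. Log2 values below 6 limit what can be said of dim genes, and a gene that passed on a probe set other than its brightest, as *Acta2*, rests on that probe set.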
